A study of Homo sapiens with 6 samples.

Results

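The SOX, FOX, GATA, TBX and KLF families of transcription factors were followed in T98G glioblastoma cells that lacked CBX8 or re-expressed it. Members were taken by symbol alone, as every gene of the count table whose name is SOX, GATA, TBX or KLF with a number, or FOX with a subclass letter and a number. This rule gave 100 genes of the 57133 symbols in the table: 19 SOX, 44 FOX, 6 GATA, 13 TBX and 18 KLF genes. T98G is an established human glioblastoma line. All 6 libraries derived from T98G cells whose CBX8 gene was disrupted with Cas9 and a guide RNA and which were selected with puromycin, and the sources used here do not say whether the line is 1 clone. The CBX8 KO condition (3 libraries) carried the empty doxycycline-inducible TetO-FUW vector, and the WT CBX8 re-expression condition (3 libraries) carried the vector with V5-tagged wild-type CBX8. Both also carried the rtTA activator, were selected with puromycin and hygromycin, and received 1 µg/ml doxycycline for 72 h. The genotype label of the re-expression libraries reads wild type, whereas their titles and the methods describe re-expression in the KO line, which was followed here. Each condition is therefore 1 separately selected line, and an effect of CBX8 cannot be told apart from other differences between the lines. The libraries of a condition are numbered replicates that are not stated to be separate cultures, so p-values measure the spread between libraries.

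CBX8 is a chromodomain subunit of canonical Polycomb repressive complex 1, which binds nucleosomes carrying H3K27me3 and holds developmental genes in a repressed state. Genes for lineage-determining factors, among them many SOX, FOX, GATA and TBX genes, lie in the CpG-rich domains that Polycomb covers in many cell types. SOX factors bind DNA through an HMG box, FOX factors through a forkhead domain, GATA factors through zinc fingers that read the GATA sequence, TBX factors through a T-box, and KLF factors through C-terminal zinc fingers that read GC-rich sites. The comparison addresses which of these factors T98G cells transcribe and which changed when CBX8 was re-expressed.

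Total counts lay between 7950190 and 8659796 per library, and members took 0.213% to 0.225% of them. CBX8 itself was read 96, 104 and 83 times with the empty vector and 30372, 31408 and 27791 times with WT CBX8, a log2 difference of 8.22 (SE, the standard error, 0.08). The re-expression libraries thus matched their titles. No library of unmodified T98G cells was analysed here. The counts therefore neither check the knockout nor compare the re-expressed CBX8 level with an endogenous one. Among markers of the mesenchymal glioma line, VIM, CD44, FN1 and CAV1 had condition means between 542 CPM for FN1 and 2895 CPM for CD44 (CPM are counts relative to the TMM-scaled library size), whereas NES had a mean of 0.20 and 0.39 CPM. Of the 8 astrocyte and oligodendrocyte markers, S100B, AQP4 and OLIG1 had no count, and the summed level of the list was 3.68 to 4.42 CPM in CBX8 KO and 6.31 to 9.25 CPM in re-expression libraries. Summed levels of the neuronal markers were 11.3 to 13.0 and 13.9 to 16.7 CPM, those of the immune markers were 7.49 to 10.1 and 6.28 to 8.33 CPM, and the endothelial and epithelial lists stayed below 1 CPM. Of the melanocyte markers, PMEL had a mean of 24.2 and 23.3 CPM and TYR no count. Of the mesenchymal markers, CD44 was lower upon re-expression (log2 difference -0.21, edgeR adjusted p = 0.0097). FN1 (0.22, edgeR adjusted p = 0.0031) and CAV1 (0.15, edgeR adjusted p = 0.038) were higher. VIM differed by 0.05 (edgeR adjusted p = 0.61). The part of the mesenchymal, glial and neuronal marker shifts in the results below was not tested. In these bulk libraries, fewer cells expressing a gene and less RNA per cell cannot be told apart.

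Promoter sequence was read from RefSeq (GRCh38.p14), which held an entry for 73 of the 100 members. In the 250 bases before the annotated start, these 73 promoters had a median of 20 CG pairs and a GC content of 67.2%, against 11 CG pairs and 58.0% over all 27303 promoters. For 4 members with FDR < 0.05 below, 1 pair that fell and 1 pair that rose upon re-expression, the 120 bases before the start are shown 5′ to 3′ with CG pairs in capitals, because they differ widely in CG pairs. Of all 27303 promoters, 85.9% held at least 1 CG pair in such a 120-base window, with a median of 6, and a CG pair reads the same on both strands. The windows lie at chr13:73054856-73054975 (KLF5), chr6:1389456-1389575 (FOXF2), chr7:4682175-4682294 (FOXK1) and chr1:47437924-47438043 (FOXD2), all on the plus strand, and no exon of GENCODE release 44 overlaps them.
KLF5: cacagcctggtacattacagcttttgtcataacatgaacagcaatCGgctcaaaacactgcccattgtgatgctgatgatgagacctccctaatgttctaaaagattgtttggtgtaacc
FOXF2: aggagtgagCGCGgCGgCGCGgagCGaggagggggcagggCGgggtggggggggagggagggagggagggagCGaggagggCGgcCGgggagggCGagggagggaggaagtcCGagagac
FOXK1: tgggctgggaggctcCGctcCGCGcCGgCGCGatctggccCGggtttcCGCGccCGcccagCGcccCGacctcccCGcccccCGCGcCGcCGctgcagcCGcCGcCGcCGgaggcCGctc
FOXD2: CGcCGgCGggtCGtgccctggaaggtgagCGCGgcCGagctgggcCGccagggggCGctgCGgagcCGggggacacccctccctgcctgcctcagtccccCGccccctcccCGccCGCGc
The windows hold 1 CG pair for KLF5, 12 for FOXF2, 22 for FOXK1 and 15 for FOXD2. Among other called members, the window of KLF9 (lower) holds 1 CG pair and that of TBX1 (higher) holds 9. Those of FOXA1 and GATA6 (both lower) hold 9 and 7, and they overlap exons of FOXA1 and GATA6-AS1. The remaining called members, SOX9, FOXF1, KLF3 and TBX3 (all lower), had no promoter entry. No relation between CG pairs and direction is drawn from these windows, and other start sites were not examined.

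Of the 100 members, 53 passed edgeR's filterByExpr (at its defaults) and were tested, 22 had counts but too few to test, and 25 had no count in any library. A count of 0 in all 6 libraries allows up to 0.060 CPM, as counting error alone. The tested members were 9 of 19 SOX, 23 of 44 FOX, 4 of 6 GATA, 5 of 13 TBX and 12 of 18 KLF genes. All 53 had a mean of at least 1 CPM, and 35 of them at least 10 CPM.

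Levels were compared between genes as CPM per kilobase of the canonical transcript, over all 6 libraries. Among SOX genes, SOX9, a SOXE factor of neural crest, glia and cartilage, was highest at 21.5 ± 2.55 CPM per kilobase (SD, n = 6). SOX12, a SOXC factor, followed at 19.5 ± 1.27, and SOX13 at 7.12 ± 0.46. The ranges of SOX9 and SOX12 within 1 SD overlapped, but this SD includes the difference between conditions. In CBX8 KO alone they were at 23.5 ± 1.55 and 20.6 ± 0.57 (SD, n = 3), without overlap. With WT CBX8 they were at 19.4 ± 1.29 and 18.5 ± 0.50 (SD, n = 3), with overlap. The neural stem cell factor SOX2 had no count in any library, nor did SOX3, SOX8, SOX14, SOX17 and SOX21. SOX1, SOX7, SOX10 and SOX30 had between 2 and 25 counts over all libraries and were not tested.

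FOXM1, the forkhead factor of the G2/M transcription programme, had the highest level per kilobase of all members at 96.8 ± 5.48 CPM per kilobase (SD, n = 6). FOXF1, a factor of lung and gut mesenchyme, followed at 47.0 ± 4.31 and FOXJ3 at 26.8 ± 1.01. FOXF2, the paralog of FOXF1, came next at 24.2 ± 3.42, within 1 SD of FOXJ3. In CBX8 KO alone FOXF2 was at 26.8 and FOXJ3 at 26.5 CPM per kilobase, and with WT CBX8 they were at 21.7 and 27.1, so their order held in 1 condition and swapped in the other. FOXA1, a pioneer factor of endoderm and hormone-responsive epithelium, was at 12.3 ± 2.48. The FOX genes without a count were FOXE1, FOXI1, FOXI2, FOXI3, FOXJ1, FOXN1, FOXN4, FOXP2, FOXR1, FOXR2 and FOXS1. FOXA2, FOXA3, FOXB1, FOXB2, FOXD3, FOXD4, FOXE3, FOXO6, FOXP3 and FOXQ1 had between 1 and 31 counts in all and were not tested.

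GATA3 led its family at 12.1 ± 0.81 CPM per kilobase (SD, n = 6), followed by GATA4 at 3.86 ± 0.28, GATA6 at 2.84 ± 0.57 and GATA2 at 1.10 ± 0.35. GATA1, the erythroid factor, and GATA5 had no count. A single gene held most of the TBX signal: TBX3, a T-box repressor of limb, heart and mammary development, was at 48.9 ± 4.11 CPM per kilobase, TBX15 at 2.25 ± 0.30 and TBX1 at 1.46 ± 0.45. TBX4, TBX18, TBX20 and TBX22 had no count, and TBX6, TBX10, TBX19 and TBX21 had between 3 and 49 counts in all. Among KLF genes, KLF10, a TGF-beta-inducible factor, was highest at 23.1 ± 1.63, KLF16 followed at 15.4 ± 0.89 and KLF6 at 13.1 ± 0.66. KLF8 and KLF14 had no count, and KLF1, KLF15, KLF17 and KLF18 had between 1 and 14. The 3 highest members of each family were the same 15 genes when the longest transcript was used for the length.

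**Figure D1:**
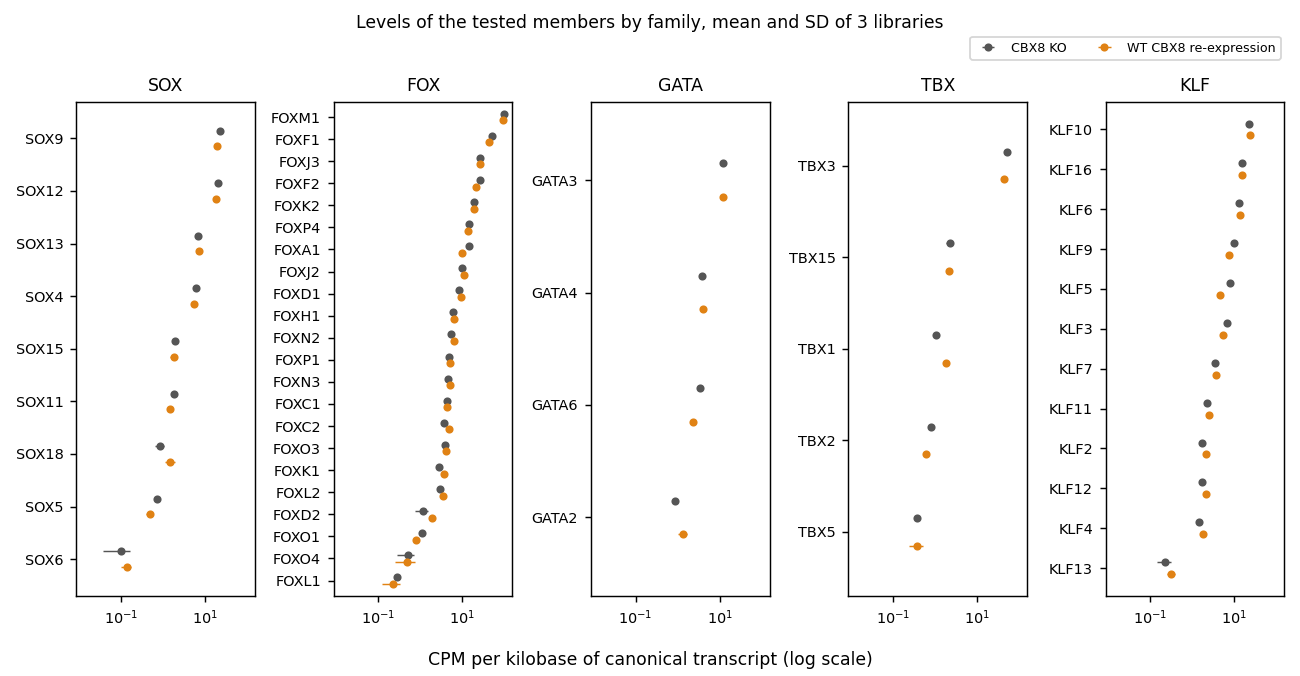
CPM per kilobase of canonical transcript (log axis) for 52 tested members by family, as mean and SD of the 3 CBX8 KO (grey) and 3 WT CBX8 re-expression (orange) libraries. FOXM1 at 96.8, TBX3 at 48.9 and FOXF1 at 47.0 over all 6 libraries are the highest, and both conditions lie close together for most members.

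Upon WT CBX8 re-expression, 9 members were lower and 3 were higher at FDR < 0.05 (edgeR's quasi-likelihood test, Benjamini-Hochberg adjustment over 14461 genes). The lower members were KLF5, GATA6, FOXA1, KLF9, KLF3, FOXF2, SOX9, FOXF1 and TBX3, and the higher members were TBX1, FOXD2 and FOXK1. The 9 lower members are 17.0% of the 53 tested, against 6.63% of all tested genes, and the 3 higher members are 5.66%, against 6.23%. With libraries scaled by size alone, 9 members were lower and 7 higher, the added ones being GATA2, FOXJ2, KLF12 and FOXC2. In either direction 22.6% of tested members were called, against 12.9% of all genes. The CPM ranges of the conditions did not overlap for 30 members, 56.6% of those tested against 28.9% of all genes. All 12 called members were among them, which is no further support, since the same libraries gave the calls. The median log2 fold change of the 53 members was 0.03, against 0.005 over all tested genes, with 25 members below 0 and 28 above. The changes were small, and KLF5 with a 1.77-fold fall was the largest decrease.

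**Figure D2:**
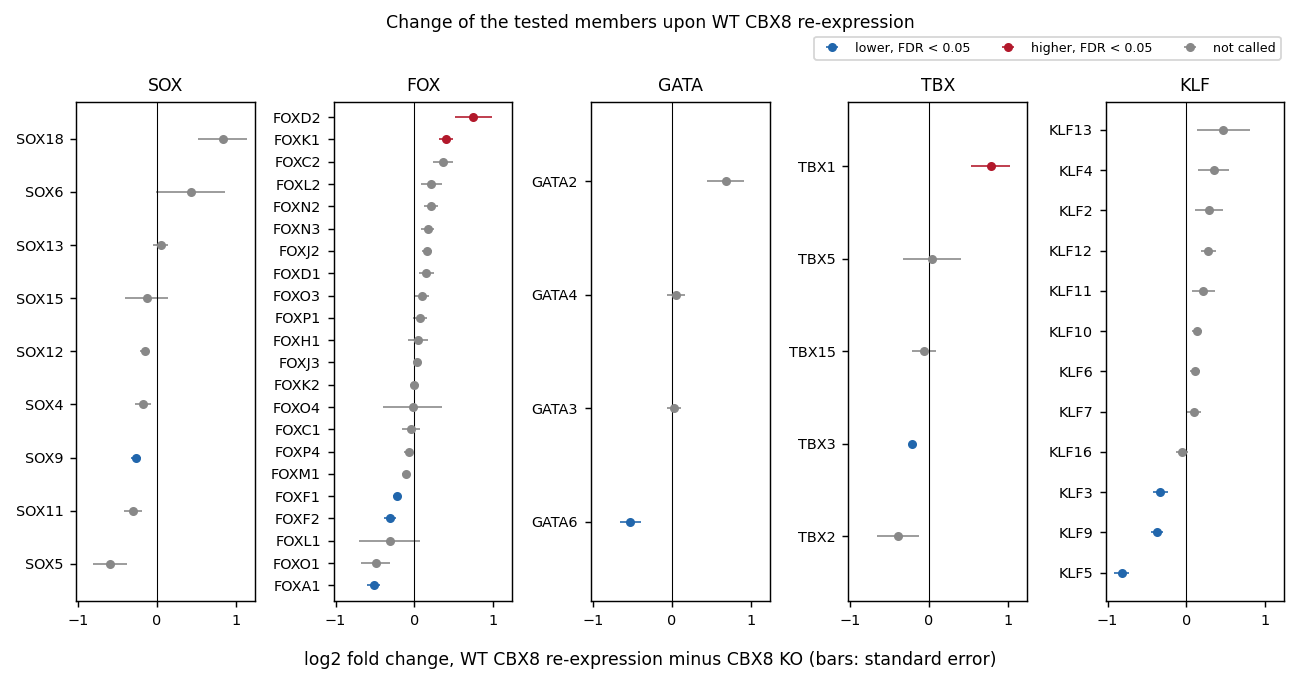
Log2 fold change of 52 tested members (WT CBX8 re-expression minus CBX8 KO, bars: standard error) by family, with members lower at FDR < 0.05 in blue, higher in red and the others in grey. The 9 blue points run from -0.82 (KLF5) to -0.21 (TBX3), and the 3 red points from 0.40 (FOXK1) to 0.78 (TBX1).

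The KLF family held 3 of the 9 lower members, 25% of its tested genes against 6.63% of all genes. Of the 12 tested KLF genes, 0 were higher at FDR < 0.05 by edgeR, DESeq2 or limma voom, and 2 had a higher level at an unadjusted edgeR p under 0.05, of which KLF12 passed with library size scaling alone. KLF5, an activator of epithelial and smooth muscle proliferation (chr13:73054976-73077541, plus strand, 4 exons), had 27.5, 26.3 and 26.2 CPM with the empty vector against 15.2, 15.8 and 14.3 CPM with WT CBX8. All 3 re-expression libraries thus lay far below all 3 KO libraries. This was a log2 difference of -0.82 (SE 0.10, edgeR adjusted p = 1.2e-06). KLF9, a glucocorticoid- and thyroid hormone-induced repressor that recruits SIN3A, had 51.5, 50.4 and 48.4 CPM in CBX8 KO against 39.3, 34.3 and 42.6 CPM with WT CBX8. The KO values were tightly grouped and the re-expression values spread more widely below them. KLF9 thus differed by -0.37 on the log2 scale (SE 0.08, edgeR adjusted p = 0.0022). KLF3, a repressor that binds CtBP, had 41.6, 38.6 and 34.9 CPM in CBX8 KO against 30.0, 28.6 and 33.2 CPM with WT CBX8. The lowest KO library of KLF3 lay close to the highest re-expression library. KLF3 changed by -0.33 log2 units (SE 0.09, edgeR adjusted p = 0.014), and its adjusted p was 0.0865 without CBX8 KO replicate 1 and 0.074 without re-expression replicate 2. KLF3-AS1 overlaps an exon of KLF3 on the other strand and had a mean of 1.00 and 0.97 CPM, and the strand setting of the counting is not given in the sources used here.

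The KLF genes fall by their cofactors into activators, CtBP-binding repressors and SIN3A-binding repressors, and each of these subgroups held 1 of the lower members. Of the 5 tested activators, KLF2, KLF4, KLF6 and KLF7 had log2 fold changes between 0.10 and 0.35 and did not pass the test. KLF12, the other tested CtBP-binding member, differed by 0.28 log2 units (SE 0.10, edgeR adjusted p = 0.063). KLF10, KLF11, KLF13 and KLF16 lay between -0.06 and 0.47 without passing, and transcripts of KLF13 also match 1 alternate contig of hg38 almost completely. With KLF5, KLF9 and KLF3 lower, the family's summed level was 352 ± 10.1 CPM in CBX8 KO against 340 ± 11.3 CPM with WT CBX8 (SD, n = 3).

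Of the 23 tested FOX genes, 3 were lower (13%, against 6.63% of all genes) and 2 higher (8.7%, against 6.23%). FOXA1 (chr14:37589552-37596059, minus strand) had 54.1, 50.3 and 48.6 CPM in CBX8 KO against 33.7, 37.5 and 35.6 CPM with WT CBX8. The conditions were separated by more than their own ranges. On the log2 scale FOXA1 changed by -0.52 (SE 0.08, edgeR adjusted p = 2.9e-05), and TTC6 overlaps it on the other strand. FOXF2 had 63.6, 70.7 and 62.5 CPM in CBX8 KO against 60.1, 47.8 and 51.7 CPM with WT CBX8. Re-expression replicate 1 came close to the lowest KO library. FOXF2 changed by -0.30 log2 units (SE 0.08, edgeR adjusted p = 0.0072), and its adjusted p was 0.0848 without CBX8 KO replicate 2 and 0.0859 without re-expression replicate 2. FOXF1, the paralog of FOXF2, had 173, 181 and 181 CPM in CBX8 KO against 162, 148 and 149 CPM with WT CBX8. The log2 difference was -0.22 (SE 0.05, edgeR adjusted p = 0.0039), so both FOXF genes were lower.

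FOXK1, a factor of muscle progenitors and of glycolytic and autophagy genes, rose. It had 33.2, 31.8 and 29.8 CPM in CBX8 KO against 38.7, 41.4 and 45.2 CPM with WT CBX8. The rise was 0.40 log2 units (SE 0.09, edgeR adjusted p = 0.0019), while its paralog FOXK2 had means of 100.28 and 100.05 CPM with a log2 difference of -0.002 (95% interval -0.12 to 0.12). FOXD2, a factor of paraxial and kidney mesenchyme, had 18, 36 and 20 counts in CBX8 KO against 48, 40 and 44 with WT CBX8, or 2.27, 4.28 and 2.56 against 5.64, 4.57 and 5.24 CPM. CBX8 KO replicate 2 came close to the lowest re-expression library. FOXD2 rose by 0.75 log2 units (SE 0.23, edgeR adjusted p = 0.034). The adjusted p of FOXD2 was 0.12 with DESeq2, 0.0543 with the replicate block, 0.17 and 0.12 without CBX8 KO replicate 1 or 3, and 0.11 and 0.082 without re-expression replicate 1 or 3. FOXD2-AS1 had a mean of 8.24 and 6.90 CPM and did not pass.

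The 18 other tested FOX genes did not pass. The nearest to the threshold were FOXC2, a mesenchymal and lymphatic factor, at a log2 difference of 0.36 (SE 0.13, edgeR adjusted p = 0.062) and FOXO1, an insulin-regulated factor, at -0.49 (SE 0.19, edgeR adjusted p = 0.087). FOXM1 had 359, 341 and 371 CPM in CBX8 KO against 314, 336 and 340 CPM with WT CBX8, so the highest re-expression library lay just below the lowest KO library. The difference of FOXM1 was -0.11 log2 units (SE 0.05, edgeR adjusted p = 0.16). FOXJ3, at 138 ± 4.25 and 142 ± 6.63 CPM (SD, n = 3), differed by less than the spread between libraries. The summed FOX level was 1326 ± 33.1 CPM in CBX8 KO against 1275 ± 20.3 CPM with WT CBX8 (SD, n = 3).

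**Figure D3:**
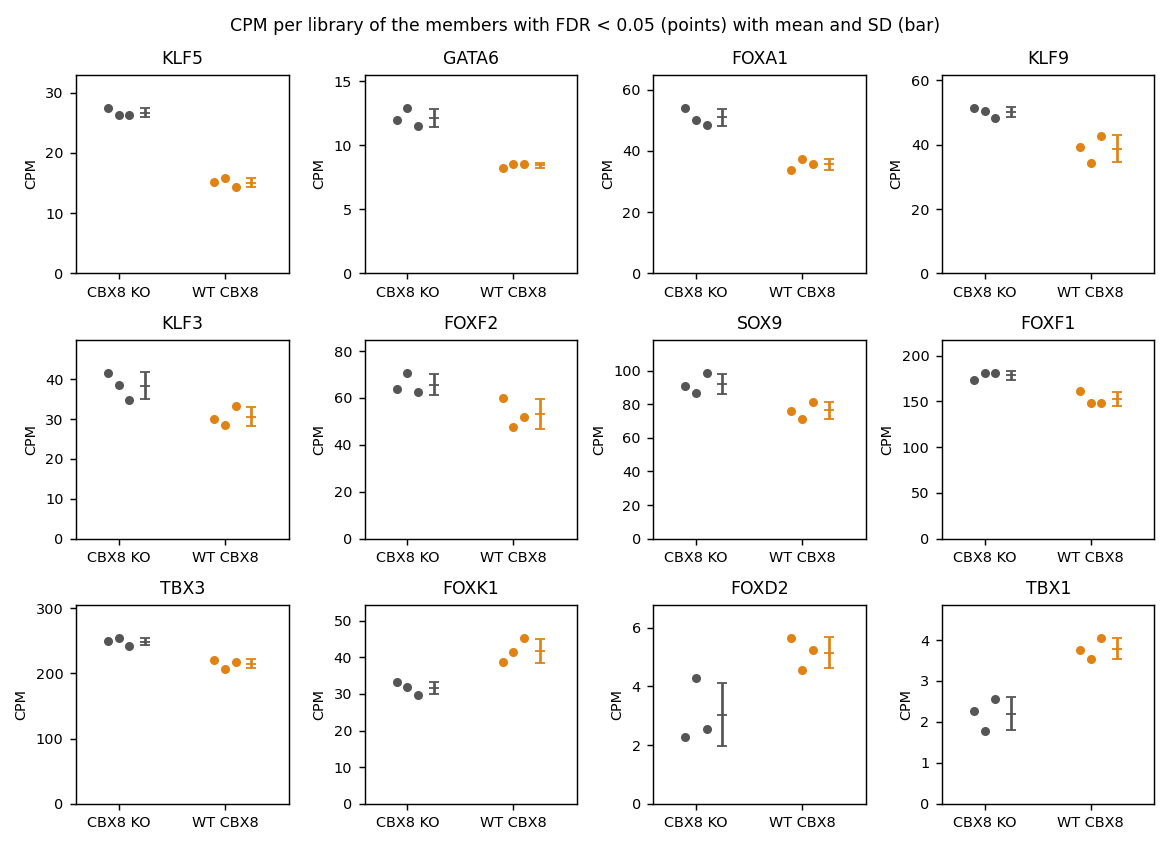
CPM in each library (points) with mean and SD (bar) of the 12 members with FDR < 0.05, CBX8 KO in grey and WT CBX8 re-expression in orange, each axis starting at 0. The same libraries gave the calls. In all 12 panels the conditions do not overlap, from a wide gap for KLF5 (26.2 to 27.5 against 14.3 to 15.8 CPM) to neighbouring values for FOXF2 (62.5 against 60.1 CPM).

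The FOXF genes each lie in a cluster with other FOX genes, which gave a view of neighbouring members. On chromosome 16, FOXF1 (86510527 to 86515422, plus strand) is transcribed away from the long noncoding RNA gene FENDRR, whose start lies 1428 bases before that of FOXF1. FENDRR had a mean of 155 CPM in CBX8 KO against 130 CPM with WT CBX8, a log2 difference of -0.25 (SE 0.05, edgeR adjusted p = 0.0013). The differences of FOXF1 and FENDRR lay within 1 SE of each other. FOXC2, whose start lies 56.3 kb beyond that of FOXF1, had the opposite sign without passing, and FOXL1, at 65.8 kb, had a log2 fold change of -0.31 with a standard error of 0.39. On chromosome 6, FOXF2 (1389576 to 1395603, plus strand) has FOXC1 at 220.3 kb, which differed by -0.04 log2 units (SE 0.11). FOXQ1, with its start 77478 bases before that of FOXF2, had 10 counts in all and was not tested.

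**Figure D4:**
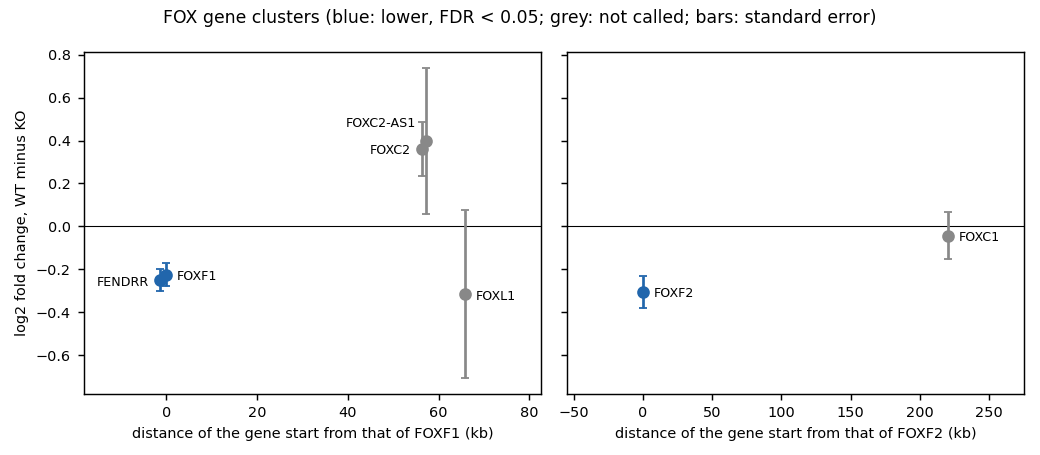
Log2 fold change (WT CBX8 re-expression minus CBX8 KO, bars: standard error) of tested genes in the FOXF1 cluster (left) and the FOXF2 cluster (right) against the distance in kb of each gene start from that of FOXF1 or FOXF2. FENDRR at -0.25, FOXF1 at -0.22 and FOXF2 at -0.30 are lower at FDR < 0.05 (blue), and FOXC2, FOXC2-AS1, FOXL1 and FOXC1 (grey) did not pass.

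Of the 4 tested GATA genes, 1 was lower (25%, against 6.63% of all genes). By edgeR, DESeq2 or limma voom 0 GATA genes were higher (1 at an unadjusted edgeR p under 0.05). GATA6, a factor of endoderm and heart (chr18:22169589-22202528, plus strand, 7 exons), had 95, 109 and 90 counts in CBX8 KO against 70, 75 and 72 with WT CBX8. In CPM these were 12.0, 13.0 and 11.5 against 8.23, 8.57 and 8.57, so the re-expression libraries lay together below all KO libraries. GATA6 changed by -0.52 log2 units (SE 0.13, edgeR adjusted p = 0.0069). The adjusted p of GATA6 was 0.0515 with DESeq2 and 0.0504 without CBX8 KO replicate 2, both just short of passing. GATA6-AS1, which starts 0.289 kb from GATA6 on the other strand and overlaps it, had a mean of 2.46 and 2.72 CPM and did not pass. GATA2, a haematopoietic and endothelial factor, had 24, 23 and 22 counts in CBX8 KO against 43, 47 and 28 with WT CBX8. All re-expression libraries were higher, but replicate 3 stood nearer to the KO libraries than the other two. The log2 difference of GATA2 was 0.68 (SE 0.24, edgeR adjusted p = 0.056), and without replicate 3 of re-expression the adjusted p was 0.020. It was 0.0361 when libraries were scaled by size alone. Under the 14 other settings tried GATA2 did not pass. Its adjusted p was 0.20 with DESeq2, 0.083 with limma voom and at most 0.24. GATA3, a T cell and epithelial factor, and GATA4, a cardiac factor, had log2 fold changes of 0.03 (95% interval -0.15 to 0.20) and 0.05 (95% interval -0.19 to 0.30).

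Of the 9 tested SOX genes, 1 was lower, SOX9 (11.1%, against 6.63% of all genes). By edgeR, DESeq2 or limma voom 0 SOX genes were higher, with 4 lower and 1 higher at an unadjusted edgeR p under 0.05. SOX9 had 91.3, 86.7 and 98.8 CPM in CBX8 KO against 76.3, 71.4 and 81.6 CPM with WT CBX8. The highest re-expression library lay below the lowest KO library. SOX9 changed by -0.27 log2 units (SE 0.06, edgeR adjusted p = 0.0039), and without re-expression replicate 2 the adjusted p was 0.055. The 3 SOXC genes, which act in progenitor and neuronal differentiation, had log2 fold changes of -0.16 for SOX12, -0.18 for SOX4 and -0.31 for SOX11, with edgeR adjusted p-values of 0.058, 0.27 and 0.076. Without CBX8 KO replicate 1 the adjusted p of SOX12 was 0.0495. Under the 15 other settings tried SOX12 did not pass, with an adjusted p of at most 0.25. Of the SOXD genes, SOX5 had a mean of 5.15 ± 0.46 CPM in CBX8 KO against 3.40 ± 0.54 CPM with WT CBX8 (SD, n = 3), a log2 fold change of -0.60 with an edgeR adjusted p of 0.063. SOX13 had 0.05 (95% interval -0.15 to 0.24) and SOX6 had 0.43 with a standard error of 0.44. SOX18, a SOXF factor of vessels, differed by 0.83 log2 units (SE 0.31, edgeR adjusted p = 0.081) at 1.57 and 2.81 CPM. The summed SOX level was 276 ± 9.60 and 244 ± 8.97 CPM (SD, n = 3).

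TBX3 fell and TBX1 rose among the 5 tested TBX genes. Each is 20% of them, against 6.63% of all genes lower and 6.23% higher. TBX3 (chr12:114670255-114684175, minus strand) had 249, 254 and 242 CPM in CBX8 KO against 221, 207 and 217 CPM with WT CBX8. Both conditions were tightly grouped and did not overlap. TBX3 changed by -0.21 log2 units (SE 0.05, edgeR adjusted p = 0.0037), and TBX3-AS1 overlaps it on the other strand. TBX1, a factor of the pharyngeal apparatus (chr22:19756703-19783593, plus strand), had 18, 15 and 20 counts in CBX8 KO against 32, 31 and 34 with WT CBX8. TBX1 rose by 0.78 log2 units (SE 0.25, edgeR adjusted p = 0.040) at 2.20 ± 0.39 and 3.78 ± 0.25 CPM (SD, n = 3). The adjusted p of TBX1 was 0.17 with DESeq2, 0.0611 with the replicate block, 0.0823 and 0.18 without CBX8 KO replicate 1 or 2, and 0.0813, 0.0738 and 0.11 without re-expression replicate 1, 2 or 3. GNB1L overlaps it on the other strand. TBX2, TBX5 and TBX15 had log2 fold changes of -0.39, 0.04 and -0.06 and did not pass, with standard errors of 0.27, 0.37 and 0.15.

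**Figure D5:**
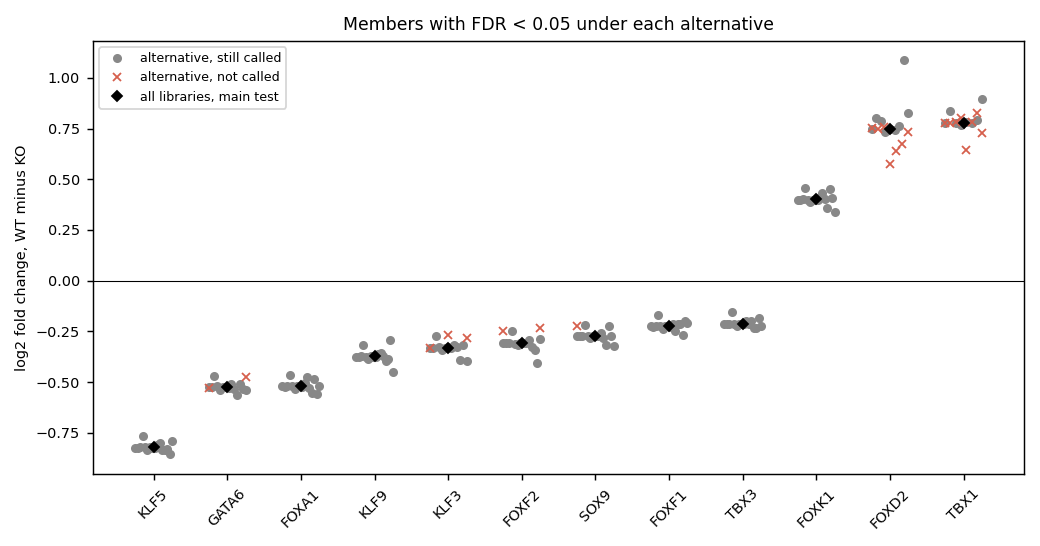
Log2 fold change (WT CBX8 re-expression minus CBX8 KO) of the 12 members with FDR < 0.05 in the main test (black diamonds) and under 16 other settings each, with grey points where the member was still called and red crosses where it was not. KLF5, FOXA1, KLF9, FOXF1, TBX3 and FOXK1 were called under all 16, while FOXD2 lost its call under 7 and TBX1 under 8, and no point changed sign.

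Partners and relatives of these factors were counted against the 6.63% of all tested genes that were lower and the 6.23% that were higher, 12.9% in either direction. Of 17 tested cofactors of GATA, SOX, FOX and KLF proteins, 2 were lower and 2 higher (23.5% called), with a median log2 fold change of -0.005 against 0.005 over all genes. ZFPM2, which encodes FOG2, the partner of GATA4 and GATA6, had a mean of 12.2 CPM in CBX8 KO against 6.75 CPM with WT CBX8, a log2 difference of -0.85 (SE 0.15). LMO4, a LIM-only adaptor, fell by 0.35 on the log2 scale. TLE2, a Groucho corepressor, rose from a mean of 3.78 to 7.10 CPM (log2 fold change 0.90), and CREBBP, an acetyltransferase, rose with a log2 fold change of 0.19.

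Of 15 tested relatives that share a DNA-binding domain under another name, 3 were lower and 2 higher (33.3% called, against 12.9% of all genes), with a median of 0.006. SP4 (-0.39), LEF1 (-0.34) and BBX (-0.17) were lower on the log2 scale, and SP6 (0.99) and MGA (0.41), a T-box and bHLH protein of a variant Polycomb complex, were higher. Of 5 tested antisense, divergent or neighbouring RNAs of members, FENDRR was lower and 0 were higher by edgeR, DESeq2 or limma voom (also 0 at an unadjusted edgeR p under 0.05), with a list median of 0.14.

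Targets of FOXM1, the member with the highest level, did not pass the test in either direction. Of 12 tested targets, among them CCNB1, PLK1 and AURKB of mitosis, 0 were called by edgeR, DESeq2 or limma voom, 2 were lower and 1 higher at an unadjusted edgeR p under 0.05, and their median log2 fold change was -0.04. Of 11 tested FOXO targets, which act in stress defence and cell cycle arrest, 2 were lower and 1 was higher (27.3% called, against 12.9% of all genes), with a median of -0.15. SOD2, the mitochondrial superoxide dismutase, fell from a mean of 129 to 104 CPM, CITED2 fell from 147 to 115 CPM, and GADD45A rose from 17.2 to 22.0 CPM.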

How the data were processed

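Poly(A) RNA of T98G CBX8 KO cells with the empty vector (3 libraries) or WT CBX8 (3 libraries) was sequenced as paired-end reads. The authors deposited a table of unnormalized counts by gene symbol, made after adapter trimming with Trimmomatic and alignment to hg38 with HISAT2. The program, annotation and strand setting used to count reads are not given in the sources used here, so overlapping, antisense and near-identical genes are uncertain. Total counts lay between 7950190 and 8659796 per library. Without molecular identifiers, limits derived from a count of 0 (3 counts over the 6 libraries) cover counting error alone. Pairs of libraries within a condition differed beyond sampling noise (chi-square per degree of freedom 1.96 to 2.90), so all 6 were kept.

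The filter filterByExpr of edgeR 4.0.16 (R 4.3.3) left 14461 genes. TMM factors were applied and the conditions compared with glmQLFit and glmQLFTest at default settings, without further covariates. Benjamini-Hochberg adjustment ran over all tested genes (FDR < 0.05). Standard errors (SE) are the size of the log2 difference over the root of its F statistic, and intervals are at 95%. The fit was checked on simulated counts. There, 61% of genes given a log2 change of 0.5 were called, and 83.7% of those given a change of 1. Levels per kilobase used canonical transcripts of GENCODE release 44, in which all 100 members were found. Near-identical copies were sought with minimap2 2.31 (at least 95% of transcript bases matched). Promoters are from RefSeq. The values of 1 tested member are not reported here, although it is included in all counts.

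The members and gene lists were chosen with earlier results of these data known. Values were given for members with FDR < 0.05, the 3 highest per kilobase in each family, all GATA genes, and called genes of the lists. Other members, chosen after their values were seen, were named where they stood near the threshold or belong to a described subgroup. Other settings tried were scaling by RLE, upper quartile or library size, DESeq2 1.42.0, limma voom (limma 3.58.1), the other legacy setting of glmQLFit, no filter (at least 1 count in all) or CPM of at least 1 in 3 libraries, FDR < 0.01, the replicate number as a block, each library left out in turn, and the longest transcript as length.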

Additional observations from a re-analysis of the deposited data

How the results depend on the processing

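The number of lower members, 9, lay between 8 and 9 under every alternative that kept all 6 libraries, and between 6 and 10 when 1 library was left out. It was 6 without re-expression replicate 2, where SOX9, FOXF2 and KLF3 lost their call. The number of higher members, 3, was 1 with DESeq2, 1 at FDR < 0.01 and 7 with library size scaling alone, and 1 to 3 when 1 library was left out, with 1 without CBX8 KO replicate 1 and 1 without re-expression replicate 1. With the replicate block, 9 members were lower and 1, FOXK1, was higher. Deviations of same-numbered libraries correlated at -0.11, -0.06 and -0.06 over 13491 genes, so the numbers were not taken to pair libraries. KLF5, FOXA1, KLF9, FOXF1, TBX3 and FOXK1 kept their call under all 16 alternatives. For TBX3 and FOXF1 this was narrow, as their largest adjusted p over the alternatives was 0.0497 and 0.0452, against 2.9e-05 for KLF5. Of 368 refits of named genes, 335 kept direction and side of the threshold, 23 lost and 3 gained a call, and 7 changed sign, all of genes that were not called. With 1 library left out, the log2 fold change ranged from -0.0096 to 0.10 for SOX13, from -0.0073 to 0.060 for FOXJ3, from -0.042 to 0.082 for GATA3, from -0.0041 to 0.12 for GATA4, from -0.14 to 0.10 for TBX15 and from -0.11 to 0.0038 for KLF16. Library size scaling moved the median log2 fold change of all genes from 0.005 to 0.06. FOXD2 and TBX1, whose calls were lost most often, had 15 to 48 counts per library, and without CBX8 KO replicate 2 the log2 fold change of FOXD2 was 1.09 (edgeR adjusted p = 0.0089); the cause was not tested.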
